A study of Drosophila melanogaster with 27 samples.

Results

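The genes described here encode subunits of the mitochondrial respiratory chain and ATP synthase of Drosophila melanogaster. They were chosen by name: every nuclear gene whose current symbol begins with ND-, UQCR-, COX or ATPsyn, found on the arrays by its CG number, together with the array probes for the mitochondrially encoded gene ATP6. Of 80 nuclear genes with such a symbol 70 had a probe, and all 70 were tested, among 11510 named genes and 16500 probes with values in the series. Complex I contributed 38 genes, complex III 5, complex IV 12 and complex V, the ATP synthase, 15. Of the 70 genes 15 are duplicates, whose symbol is that of an ancestral gene with an L added. The arrays also carried 24 probes for 12 protein-coding genes of the mitochondrial genome, 2 of them for ATP6. All 24 are described, and this wider set was taken after the files had been seen.

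The study compared eye discs in which the morphogenetic furrow, the front behind which retinal cells differentiate, had stopped or in which extra R8 cells formed, R8 being the founder photoreceptor of each facet. Each of 27 glass arrays printed with PCR products was hybridised with 2 RNAs in the dyes Cy5 and Cy3. The test RNA came from wandering L3 larvae and fell into 9 conditions. The first was the part of the eye disc posterior to the furrow, micro-dissected from w1118 larvae (posterior fragments, 4 arrays). The others were whole eye-antennal discs of rough Dominant (roDom) homozygotes (3 arrays) and heterozygotes (2), of E(roDom)2033 homozygotes (3) and heterozygotes (2), of homozygotes of the atonal allele ato1 (3) and of the hedgehog allele hh1 (4), and, with no zygosity in the titles, of the rough allele roX63 (3) and of the suppressor Su(roDom)519 (3). Stop-furrow discs means below the 13 arrays of the 4 homozygotes, in which the furrow halts. Extra-R8 discs means the 6 arrays of Su(roDom)519 and roX63. The 2033 mutation is uncharacterised and its phenotype mild, per the labels. The reference RNA on every array came from whole eye-antennal discs of w1118, a strain that lacks eye pigment and otherwise develops normally. Each sample came from a few discs, and the labels do not say which arrays, if any, share larvae or an RNA extract.

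The inner mitochondrial membrane holds the chain. Complex I takes electrons from NADH, complex III passes them from ubiquinol to cytochrome c, complex IV hands them to oxygen, and complex V uses the proton gradient that these pumps build to make ATP. Most subunits are made in the cytoplasm from nuclear genes and imported, while the core membrane subunits of complexes I, III, IV and V are encoded by the mitochondrial genome. The eye disc is known for the case of COX5A, a complex IV subunit: clones of disc cells that lack it fail to enter S phase, although photoreceptors still differentiate. Loss of ND-PDSW, a complex I subunit, slows the cycle of eye disc cells through reactive oxygen species. The roles given below for single subunits are those known from the mammalian complexes.

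Values are normalised log2 ratios of test over reference RNA, and fitted values come from 1 limma model with 9 condition means and a dye term over all 27 arrays, given with the standard error (SE). The threshold for a call was an adjusted p of 0.05, by Benjamini-Hochberg over all 16494 probes tested. The test RNA had been amplified by 2 rounds of T7 transcription and the reference by 1. A ratio against the reference treats it as 1 control sample without a spread of its own, and the extra round and the condition cannot be told apart in it, whereas a difference between 2 test conditions is free of both limits. On these bulk ratios fewer cells of a type and less RNA per cell cannot be told apart. In the test channel 38 of the 70 genes stood above background on every array (37 of 55 genes that are not duplicates and 1 of 15 duplicates), while ND-MWFE and COX6AL2 did so on 9 and 10 arrays. In at least 1 of the 2 channels, test or reference, from 48.2% of probes (posterior fragments, replicate 1) to 94.0% (Su(roDom)519, replicate 2) were detected per array. Precision is limited by how many arrays a condition has. All 8 markers of the retinal and antennal disc, among them the retinal determination genes so, ey and eya, were above background in the test channel on 22 to 27 arrays. The file header of roDom homozygote replicate 2 swaps the dyes that its labels state, and the labels were followed. Turned by its labels, the array correlated with replicates 1 and 3 at r = 0.446 and 0.278 across probes, and those 2 with each other at 0.334. Another label calls 2 arrays titled as E(roDom)2033 homozygotes (replicates 2 and 3) heterozygous, and their titles were followed.

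Averaged over the 9 conditions, respiratory chain RNA was mostly higher in the test discs than in the reference. Of the 70 nuclear genes 27 were called higher and 4 lower (44.3%), against 31.9% of all probes called and 15.9% called higher. The median of the 70 genes was a log2 change of 0.09, with 53 above 0 and 17 below, and that of all probes was 0.01. Complex I had 17 genes higher and 2 lower of 38, with a median of 0.12. Complex III had 3 of 5 higher with a median of 0.25, complex IV 5 higher and 1 lower of 12 with a median of 0.09, and complex V 2 higher and 1 lower of 15 with a median of 0.04. The highest value belonged to ND-B14.5A, an accessory subunit of complex I, at 0.68 ± 0.08 (SE, 27 arrays, adjusted p = 1.63e-06), a fold of 1.6. Next came ND-B15, another accessory subunit of complex I (0.41 ± 0.05), and COX4, a large nuclear subunit of complex IV (0.40 ± 0.08). ND-15 (0.35 ± 0.06) and ND-B17 (0.34 ± 0.05), both accessory subunits of complex I, and UQCR-C1, a core protein of complex III (0.33 ± 0.04), followed. The 4 genes called lower were COX7A of complex IV (-0.28 ± 0.07, adjusted p = 0.00517), ND-42 of complex I (-0.15 ± 0.06), ND-B8 of complex I (-0.10 ± 0.02) and ATPsynCF6L, a duplicate of the coupling factor 6 gene of the ATP synthase (-0.10 ± 0.04). COX5A was called higher at 0.23 ± 0.08 (adjusted p = 0.024) and ND-PDSW at 0.18 ± 0.06 (adjusted p = 0.0158). ATPsynbeta, the catalytic subunit of the ATP synthase, had 0.08 ± 0.06 (adjusted p = 0.353) and was called in no comparison. The 12 genes on the X chromosome had a median of 0.19 with 6 called, and the other 58 a median of 0.09 with 25 called.

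Of these 31 calls in the mean 20 held with any array left out in turn. In 9 genes the call held in each of those 27 runs and under each of 13 other processing settings: ND-15, ND-18, ND-20, ND-24, ND-B14, ND-B14.5A, ND-B15 and ND-B17 of complex I and UQCR-C2, a core protein of complex III. A fixed block for the scan day left 16 genes called in the mean, and ND-B22 (-0.069), ND-20L (-0.026) and ND-42 (0.024) changed sign, as COX7A (0.021) did with the array series as a block. No call of a single condition or of a difference between conditions held in all of them.

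**Figure D1:**
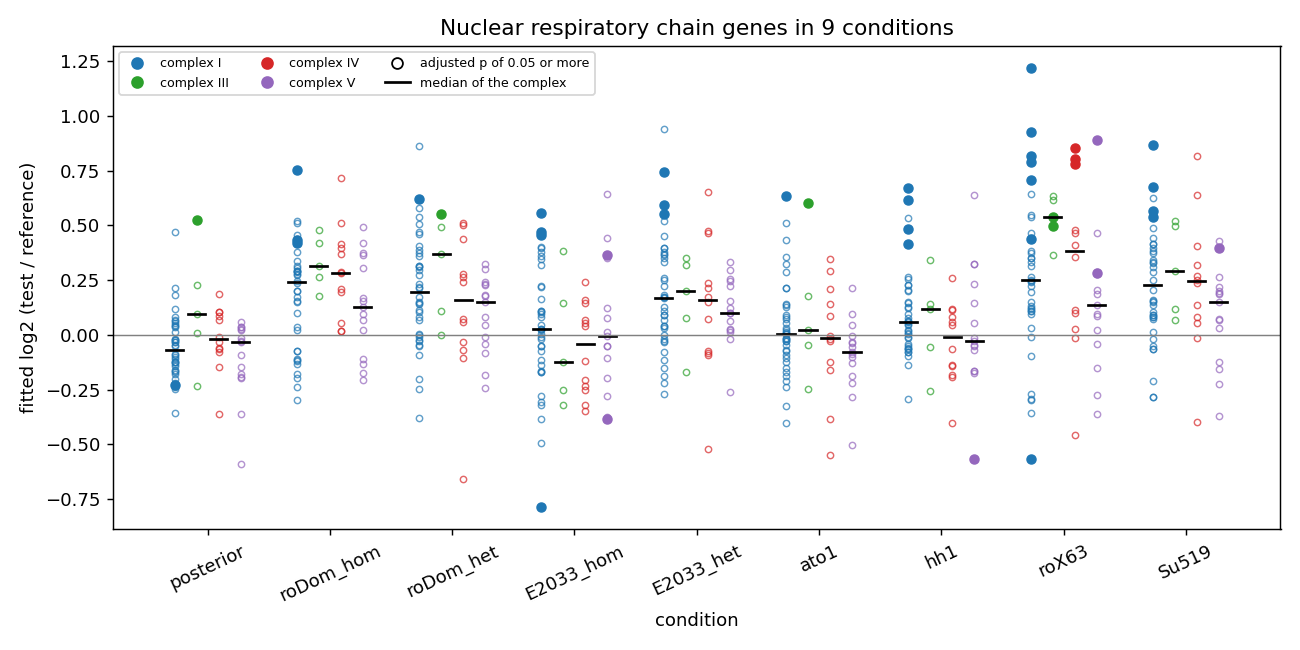
Fitted log2 change of test over reference (vertical axis) for each of the 70 nuclear genes in the 9 conditions (horizontal axis), with complexes I, III, IV and V as separate columns of points. Filled points passed an adjusted p of 0.05, open points did not, and bars are medians of the complex. E2033 and Su519 stand for E(roDom)2033 and Su(roDom)519, hom and het for homozygotes and heterozygotes. In roX63 discs 14 points are filled, more than in any other condition, and the complex medians there lie between 0.14 and 0.54.

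Single conditions gave few calls each, where from 3.41% to 13.2% of all probes were called per condition. The share of all probes called in 1, 2 or 3 conditions was not counted. Of the 70 genes 43 were called in no condition against the reference, 16 in 1, 7 in 2 and 4 in 3 conditions. The 4 were ND-B17, UQCR-C1, ND-20 and ATPsynC, and of the 7 genes called in 2 conditions ND-B14.5A and ND-B15 had the largest absolute change in the mean of the 9 conditions. Their values on every array follow, with replicates in numerical order.

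ND-B14.5A, whose product sits in the matrix arm of complex I, was above 0 on 24 of 27 arrays. It had log2 ratios of 0.98, 1.37 and 1.46 in roX63 discs, 0.80, 0.86 and 1.10 in Su(roDom)519 discs, 0.85 and 0.87 in roDom heterozygotes and 0.65 and 1.23 in E(roDom)2033 heterozygotes. The other values were 0.53, 0.45, -0.19 and 0.77 in posterior fragments, -0.14, 0.33 and 0.52 in roDom homozygotes, 0.22, 0.58 and 0.56 in E(roDom)2033 homozygotes and 0.60, 0.13, 0.46 and 0.62 in hh1 discs. In ato1 discs the 3 arrays gave -0.46, 0.11 and 1.72, the lowest and the highest value of all 27, so that this condition spanned every other. The fitted change was 1.22 ± 0.24 in roX63 (adjusted p = 0.0018) and 0.87 ± 0.24 in Su(roDom)519 (adjusted p = 0.0411), and it was called in no other condition.

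ND-B15 was above 0 on 23 arrays, with 0.62, 0.65 and 1.00 in roX63 discs and 0.30, 0.89 and 0.97 in Su(roDom)519 discs. Posterior fragments gave 0.14, -0.13, -0.45 and 0.07, and all 4 lay below the lowest extra-R8 array. Several other genes did the same, among them COX8, ATPsynC, ND-SGDH, ND-B22, ND-B12, ND-B14, ND-B14.5A and ND-B14.5B. How many of all probes do so was not counted. In ND-B15 the remaining conditions ran from -0.21 (ato1) to 0.88 (ato1 again). Its fitted changes of 0.71 ± 0.15 in roX63 (adjusted p = 0.00398) and 0.67 ± 0.15 in Su(roDom)519 (adjusted p = 0.0157) passed the test. ND-B17, an accessory subunit of the membrane arm, had 0.54 and 0.94 in E(roDom)2033 heterozygotes, 0.47, 0.47 and 0.48 in homozygotes of that mutation and 0.33, 0.75 and 0.58 in Su(roDom)519 discs. Those are the 3 conditions in which it was called (0.74 ± 0.17, 0.46 ± 0.14 and 0.54 ± 0.14). In posterior fragments it had 0.33, -0.44, -0.39 and -0.11, lower on 3 of 4 arrays than on any array of those 3 conditions.

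ND-20, the core subunit that carries the last iron-sulphur cluster before ubiquinone, was above 0 on 22 arrays. It had 0.58, 0.40, 0.46 and 0.38 in hh1 discs, 0.64, 0.63 and 0.48 in Su(roDom)519 discs and 0.49 and 0.69 in E(roDom)2033 heterozygotes. These arrays lay close together, and the fitted changes were 0.48 ± 0.09 in hh1 (adjusted p = 0.00227), 0.56 ± 0.10 in Su(roDom)519 (adjusted p = 0.0037) and 0.59 ± 0.12 in the heterozygotes (adjusted p = 0.013). Its call in hh1 was the one call of a single condition that held with any 1 of the 27 arrays left out. The 3 roX63 arrays gave 0.28, 0.48 and -0.33 and did not share a sign. Another probe for ND-20 stood at -0.03 in E(roDom)2033 heterozygotes, the single case among the calls in which probes of a gene disagreed in direction.

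UQCR-C1 was above 0 on 23 arrays, with 0.68, 0.26 and 0.89 in ato1 discs, 0.62 and 0.48 in roDom heterozygotes and 0.22, 0.41 and 0.86 in roX63 discs. It was called in these 3 conditions at 0.60 ± 0.13 (adjusted p = 0.00386), 0.55 ± 0.16 (adjusted p = 0.0451) and 0.50 ± 0.13 (adjusted p = 0.0129). In hh1 discs it had 0.50, 0.12, 0.43 and 0.35 and in posterior fragments 0.23, -0.04, -0.19 and 0.07. ATPsynC, the proteolipid of the rotating c ring of the ATP synthase, had 0.30, 0.37 and 0.22 in roX63 discs, 0.26, 0.54 and 0.44 in Su(roDom)519 discs and 0.46, 0.31 and 0.37 in E(roDom)2033 homozygotes. All 9 of these arrays lay above 0.2, and the fitted changes were 0.28 ± 0.08, 0.40 ± 0.08 and 0.37 ± 0.08. In posterior fragments ATPsynC had -0.03, 0.07, -0.07 and 0.06.

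**Figure D2:**
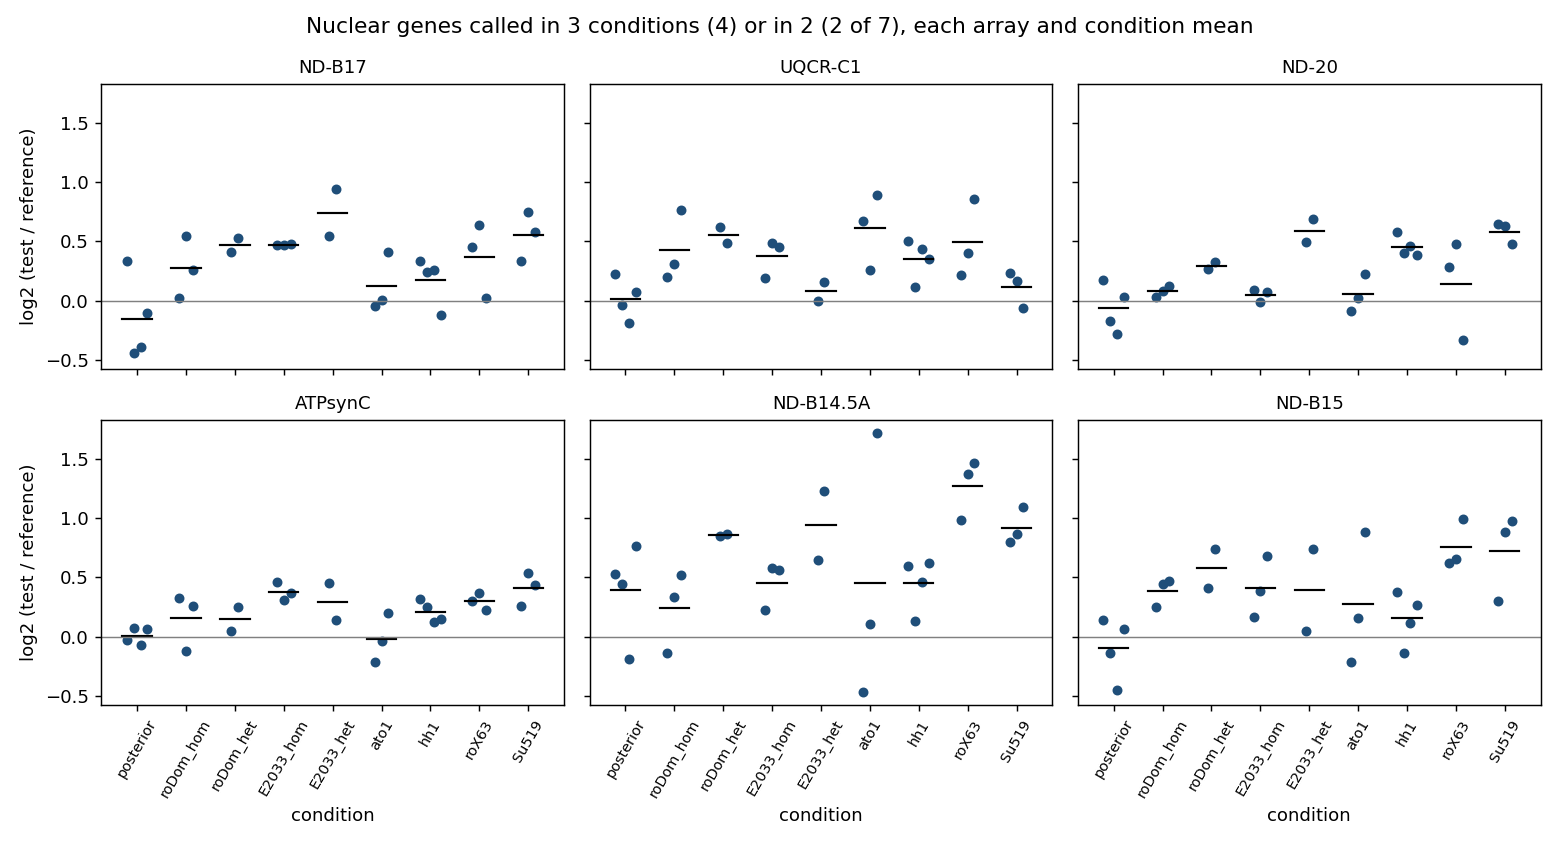
Normalised log2 ratio of test over reference RNA (vertical axis) on each of the 27 arrays for the 4 genes called in 3 conditions and for 2 of the 7 called in 2, with 1 panel per gene, conditions along the horizontal axis and bars at the mean of each condition. ND-B14.5A reached 1.37 and 1.46 in roX63 discs and was above 0 on 24 of 27 arrays, while ND-B17 and ND-B15 were near or below 0 on most arrays of posterior fragments.

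Discs of roX63, in which extra R8 cells form, showed the largest number of calls, with 13 nuclear genes higher and 1 lower of 70 (20.0%). Of all probes 12.8% were called in this condition and 5.71% were called higher. Their median was 0.26, with 57 genes above 0. The highest were ND-B14.5A (1.22), ND-B14.5B, a membrane-arm subunit of complex I (0.93 ± 0.26, adjusted p = 0.0196), ATPsynG, a membrane-sector subunit of the ATP synthase (0.89 ± 0.25, adjusted p = 0.0231), and COX8, a small membrane subunit of complex IV (0.86 ± 0.25, adjusted p = 0.0249). ND-B12 (0.82), COX5B (0.80), ND-B22 (0.79), COX4 (0.78), ND-B15 (0.71), UQCR-C2 (0.54), UQCR-C1 (0.50), ND-24 (0.44) and ATPsynC (0.28) were the other 9 called higher. ND-42 was lower at -0.57 ± 0.17 (adjusted p = 0.0291). On the arrays COX8 had 0.76, 0.91 and 0.95, ND-B14.5B 0.86, 1.14 and 0.84 and COX5B 0.88, 0.44 and 1.17, so that each was high on all 3. ATPsynG had 0.28, 0.52 and 1.63, and ND-42 had -0.44, -0.18 and -1.04, so that replicate 3 gave the largest change of both. Without replicate 3 the count of 14 fell to 1, and it was 6 without replicate 1 and 8 without replicate 2. With the scan day as a fixed block 0 genes were called and the median was 0.052, with COX4 (-0.014) and ND-B22 (-0.073) below 0. COX5A had 0.28, 0.29 and 0.58 in this condition and ND-PDSW 0.50, 0.74 and 0.12, and neither was called. Of 14 muscle markers 6 were also called higher in this condition, among them the myosin heavy chain gene Mhc (3.63 ± 0.61). The array medians of the muscle list ran from 0.32 to 1.31. Of 6 fat body markers 2 were called higher. The part of these tissues in the change of the chain was not tested.

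Su(roDom)519 discs, the other extra-R8 condition, had 5 nuclear genes called higher and 0 lower, against 4.4% of all probes called. Their median was 0.20, with 57 genes above 0 and 13 below. Beside ND-B14.5A (0.87), ND-B15 (0.67), ND-20 (0.56) and ND-B17 (0.54) of complex I, ATPsynC (0.40 ± 0.08, adjusted p = 0.011) passed. In limma 0 of 14 muscle markers and 0 of 6 fat body markers were called in this condition (0 and 1 at an unadjusted p under 0.05). Without replicate 1 the count of 5 became 2, without replicate 2 it was 0 and without replicate 3 it was 1, while without ato1 replicate 3 it was 8. A fixed block for the scan day left 0 genes called, the median was -0.028 and ND-B14.5A had -0.13.

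The 4 stop-furrow genotypes had from 2 to 6 calls each. In roDom homozygotes 3 genes of complex I were called higher and 0 lower, against 4.03% of all probes called: ND-B14.7, a membrane-arm subunit (0.75 ± 0.18, adjusted p = 0.022, arrays 1.10, 0.70 and 0.35), ND-23, a core iron-sulphur subunit (0.43 ± 0.11), and ND-24, a core subunit of the NADH-oxidising module (0.42 ± 0.11). Each of these had all 3 arrays above 0, and the median of the 70 genes was 0.24. Blocked on scan day, the median was 0.022 and 1 gene was called. Without replicate 1 or without replicate 2 the count was 0. In E(roDom)2033 homozygotes 4 genes were higher and 2 lower, against 13.2% of all probes. ND-39 (0.56 ± 0.11, adjusted p = 0.00255, arrays 0.57, 0.50 and 0.64), the core subunit ND-30 (0.47 ± 0.12), ND-B17 (0.46 ± 0.14) and ATPsynC (0.37 ± 0.08) rose, while ND-B17.2, an accessory subunit that is also placed late in assembly (-0.79 ± 0.20, adjusted p = 0.0126, arrays -1.14, -0.51 and -0.52), and ATPsynCF6L (-0.38 ± 0.11) fell. The median of the 70 genes was 0.02 here and 0.29 under the block, and without replicate 1 the count was 0.

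In hh1 discs 4 nuclear genes, all of complex I, were higher and 1 was lower, against 5.37% of all probes. ND-15 (0.67 ± 0.16), ND-B14 (0.61 ± 0.15), ND-20 (0.48) and ND-39 (0.41 ± 0.10) rose. ATPsynCF6, coupling factor 6 in the peripheral stalk of the ATP synthase, fell (-0.57 ± 0.15, adjusted p = 0.0268), with -0.14, -1.27, -0.47 and -0.68 on the arrays and values of -0.42 or higher on every array of the other conditions. Without replicate 4 the count of 5 became 1. In ato1 discs ND-15 (0.63 ± 0.18, adjusted p = 0.0269) and UQCR-C1 (0.60) were higher and 0 genes lower, against 10.1% of all probes. ND-15 had 0.09, 0.34 and 1.27 on the 3 arrays, and replicate 3 gave the highest value of the 3 for 58 of the 70 genes. Without replicate 3 the count was 1 and without replicate 1 it was 4.

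In roDom heterozygotes ND-18, an accessory subunit of the matrix arm (0.62 ± 0.16, adjusted p = 0.0293, arrays 0.16 and 1.08), and UQCR-C1 (0.55) were higher, against 4.89% of all probes called. In E(roDom)2033 heterozygotes ND-B17 (0.74 ± 0.17), ND-20 (0.59) and ND-30 (0.55 ± 0.14) were higher, against 3.41%. Both heterozygotes have 2 arrays, and leaving out either array of a genotype left 0 calls in it. In roDom heterozygotes 1 call was left without any 1 of 11 arrays of other conditions. In posterior fragments UQCR-C2 was higher (0.52 ± 0.13, adjusted p = 0.0207) and ND-B8, an accessory subunit of the matrix arm, lower (-0.23 ± 0.06, adjusted p = 0.0328), against 4.6% of all probes. UQCR-C2 had 0.77, 0.11, 0.26 and 0.62 and ND-B8 -0.48, -0.15, -0.19 and -0.16, with 4 of 4 arrays on 1 side of 0 for each. Without replicate 1, 3 or 4 the count of 2 was 0.

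**Figure D3:**
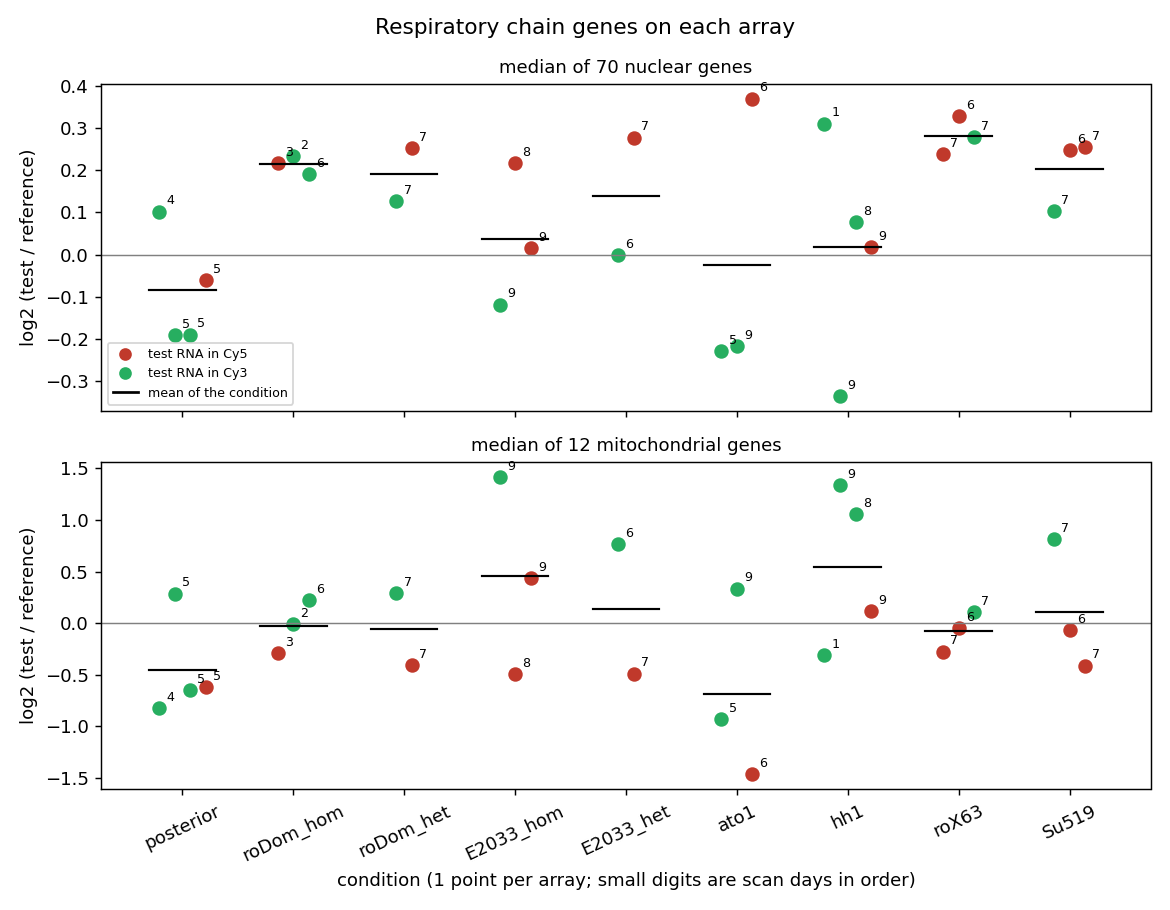
Median log2 ratio of test over reference RNA (vertical axis) of the 70 nuclear genes (upper panel) and the 12 mitochondrial genes (lower panel) on each array, by condition (horizontal axis), with the dye of the test RNA as colour, the order of the scan days as small digits and the condition mean as a bar. The 6 extra-R8 arrays lie between 0.10 and 0.33 in the upper panel, while the arrays of ato1 and hh1 spread from -0.34 to 0.37.

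The medians over the 70 genes varied as much within some conditions as between them. The array medians averaged 0.28 ± 0.05 in roX63 discs (SD, n = 3), 0.20 ± 0.09 in Su(roDom)519 discs (n = 3), 0.21 ± 0.02 in roDom homozygotes (n = 3) and 0.19 ± 0.09 in roDom heterozygotes (n = 2). They averaged 0.14 ± 0.20 in E(roDom)2033 heterozygotes (n = 2), 0.04 ± 0.17 in the homozygotes (n = 3), 0.02 ± 0.27 in hh1 discs (n = 4), -0.03 ± 0.34 in ato1 discs (n = 3) and -0.085 ± 0.14 in posterior fragments (n = 4). In posterior fragments, E(roDom)2033 homozygotes and heterozygotes, ato1 and hh1 discs the SD exceeded the size of the mean. The medians also moved with the dye and with the scan day. On the 12 arrays with test RNA in Cy5 they ran from -0.06 to 0.37 with a median of 0.24, and on the 15 arrays with test RNA in Cy3 from -0.34 to 0.31 with a median of 0.08. On scan day 5, which held 3 arrays of posterior fragments and 1 of ato1, they ran from -0.23 to -0.06, on scan day 9 (E(roDom)2033 homozygotes, ato1 and hh1) from -0.34 to 0.02 and on scan day 7 (roX63, Su(roDom)519 and both heterozygotes) from 0.10 to 0.28. The part of the scan day in the differences between conditions was not tested beyond the values given with each difference.

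Posterior fragments were also set against the mean of the other 8 conditions. Of the 70 genes 6 were called lower and 0 higher, a share close to the 8.63% of all probes called, and the median was -0.19 with 56 genes below 0. All 6 belong to complex I, which holds 38 of the 70 genes. They were ND-B17 (-0.52 ± 0.13, adjusted p = 0.0155), ND-B15 (-0.48 ± 0.15), ND-30 (-0.43 ± 0.11, adjusted p = 0.0165), ND-39 (-0.35 ± 0.11), ND-23 (-0.35 ± 0.11) and ND-20 (-0.32 ± 0.10). ND-30, ND-23 and ND-20 are core subunits of the matrix arm, and ND-39 is an accessory subunit of that arm. ND-30 had 0.07, -0.19, -0.41 and -0.23 in the fragments and ND-23 had -0.06, -0.59, -0.36 and -0.19. The count was 0 without posterior replicate 3 or 4, 1 without posterior replicate 2, 11 without posterior replicate 1, and 2 or 3 without any 1 of 10 other arrays, among them both roDom heterozygote arrays. With the scan day as a fixed block 0 of the 6 passed, ND-23 (0.14) and ND-B15 (0.10) changed sign, and the median of the 70 genes was 0.095. Posterior replicate 1 stood alone on its scan day and in its array series, with 43 of the 70 genes at their highest value of the 4 arrays.

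In each other condition minus the rest limma called at most 1 of the 70 genes, which with so few arrays does not show that they were alike. In E(roDom)2033 homozygotes ND-B17.2 was lower by the same measure (-0.86 ± 0.21, adjusted p = 0.0235), the single call among 70 genes against 5.1% of all probes. In hh1 discs ATPsynCF6 was lower (-0.68 ± 0.16, adjusted p = 0.0302), again the single call, against 1.93% of all probes. In the other 6 conditions limma called 0 of the 70 genes. Of all probes limma called 2.56% in roX63, 3.49% in ato1, 0.503% in roDom homozygotes and 0.461% in Su(roDom)519. In E(roDom)2033 and roDom heterozygotes it called 0.176% and 0.0485%. At an unadjusted p under 0.05 the 70 genes gave 16 in roX63, 9 in roDom homozygotes and 7 in ato1. Su(roDom)519 had 6, E(roDom)2033 heterozygotes 4 and roDom heterozygotes 2. This threshold is looser than that of the shares, so these counts cannot be set against them. In the authors' deposited table the same fit gave 1 call for roX63 and 0 for the other 5. For roX63 the median was 0.13, with 53 genes above 0 and 17 below. Without ato1 replicate 3 the count was 7 in roX63 and without its own replicate 3 it was 4 in ato1 and 3 in roDom homozygotes. The single calls of E(roDom)2033 homozygotes (without replicate 1 or 3) and hh1 (without replicate 2 or 4, or roDom heterozygote replicate 1) were lost.

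The next comparisons ask whether the chain differs between tissue that differentiates, discs whose furrow has stopped and discs with extra R8 cells. Mutant discs were dissected whole, so antennal and anterior eye tissue is in them and not in the fragments. Posterior fragments minus stop-furrow discs gave 2 genes lower and 0 higher of 70, against 8.16% of all probes, with a median of -0.12. ND-39 had -0.01, 0.00, -0.12 and -0.15 in the fragments, against a range of 0.00 to 0.90 with a median of 0.31 over the 13 stop-furrow arrays. UQCR-C1 had 0.23, -0.04, -0.19 and 0.07 in the fragments, against 0.12 to 0.89 with a median of 0.43. For both genes the sets overlapped in 1 fragment array (in ND-39 replicate 2 at 0.0011, against a lowest stop-furrow array at 0.001). The fitted differences were -0.42 ± 0.11 for ND-39 (adjusted p = 0.0206) and -0.43 ± 0.13 for UQCR-C1 (adjusted p = 0.0414). On scan day 5, the one day with both kinds of array, 3 fragment arrays minus 1 ato1 array differed by -0.40 in ND-39, by -0.73 in UQCR-C1 and by 0.08 in the median of the 70 genes. Markers of photoreceptors and neurons moved the other way, with 4 of 9 called higher in the fragments. Blocked on scan day, neither gene passed (-0.59 in ND-39 and -0.70 in UQCR-C1). The count of 2 became 0 without posterior replicate 3 or 4, 7 without posterior replicate 1 and 4 without hh1 replicate 2, and 1 without any 1 of 8 other arrays.

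Extra-R8 discs minus stop-furrow discs gave 4 of 70 genes higher and 0 lower, a smaller share than the 7.5% of all probes called, with a median of 0.14 and 50 genes above 0. COX8 had 0.58 to 0.95 with a median of 0.78 on the 6 extra-R8 arrays, against -0.77 to 1.07 with a median of 0.08 on the 13 stop-furrow arrays. ND-B22, an accessory subunit of the membrane arm of complex I, had 0.35 to 1.39 with a median of 0.53, against -0.52 to 0.75 with a median of -0.20. COX6B, a complex IV subunit on the side of the intermembrane space, had -0.22 to 0.85 with a median of 0.71, against -1.12 to 0.43 with a median of -0.28. The ranges overlapped for each of these, since some stop-furrow arrays reached the level of the extra-R8 arrays. The fitted differences were 0.74 ± 0.21 for COX8 (adjusted p = 0.0392), 0.73 ± 0.19 for ND-B22 (0.0228), 0.71 ± 0.18 for COX6B (0.0204) and 0.39 ± 0.10 for ATPsynCF6L (0.0133). On scan day 6, with 2 arrays of each set, COX6B differed by 0.71 and ATPsynCF6L by 0.18, whereas COX8 differed by -0.03, ND-B22 by -0.27 and the median of the 70 genes by 0.01. Blocked on scan day, 0 of the 4 passed, and COX8 (-0.23) and ND-B22 (-0.28) changed sign, as did the median of the 70 genes (-0.14). Without ato1 replicate 3 the count of 4 became 21 and without hh1 replicate 1 it was 10, while it was 2 without roDom homozygote replicate 1 and 1 without roX63 replicate 3, Su(roDom)519 replicate 2 or Su(roDom)519 replicate 3.

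Posterior fragments minus extra-R8 discs gave 6 of 70 genes lower and 0 higher, a share close to the 7.52% of all probes called, with a median of -0.32 and 54 genes below 0. ATPsynG had -0.23, 0.05, -0.86 and -0.84 in the fragments, against -0.20 to 1.63 with a median of 0.40 on the 6 extra-R8 arrays. ND-B15 had 0.14, -0.13, -0.45 and 0.07, against 0.30 to 1.00 with a median of 0.77, and ND-B22 had 0.16, 0.00, 0.00 and -0.40, against 0.35 to 1.39. The sets did not overlap in ND-B15 and ND-B22. They did not overlap in several genes without a call either, among them COX8, ATPsynC, ND-SGDH, ND-B12, ND-B14, ND-B14.5A and ND-B14.5B. The highest fragment array and the lowest extra-R8 array were 0.11 and 0.58 in COX8. They were 0.07 and 0.22 in ATPsynC and 0.09 and 0.30 in ND-SGDH. How many of all probes do so was not counted. The fitted differences were -1.13 ± 0.29 for ATPsynG (adjusted p = 0.0186), -0.83 ± 0.25 for ND-B22 (0.0499), -0.71 ± 0.18 for ND-B15 (0.0153), -0.69 ± 0.21 for ND-19, an accessory subunit of complex I (0.0469, another probe at -0.33), -0.57 ± 0.16 for ND-B17 (0.0328) and -0.45 ± 0.13 for ND-30 (0.0439). No scan day held both kinds of array. With the scan day as a fixed block, which ties them through other conditions alone, 0 of the 6 passed, and ATPsynG (0.36), ND-B22 (0.50) and ND-B15 (0.092) changed sign, as did the median of the 70 genes (0.10). The count of 6 was 0 without posterior replicate 3 or 4, 12 without posterior replicate 1 and 18 without ato1 replicate 3, and 2 or 3 without any 1 of 8 further arrays, among them every roX63 array.

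Of the 15 duplicates 2 were called higher and 1 lower in the mean of the 9 conditions, against 31.9% of all probes called. Duplicates of this kind in flies are often expressed mainly in the testis. Against the reference 1 of the 15 was called in 1 condition (ATPsynCF6L in E(roDom)2033 homozygotes), and 26 of the 55 other genes in at least 1. The share of all probes called in at least 1 condition was not counted. Above background on every array were 1 of the 15 and 37 of the 55, so these counts cannot be compared directly. In the mean of the 9 conditions ND-B14.5AL had 0.01 ± 0.04, against 0.68 for ND-B14.5A, and COX4L had 0.03 ± 0.03, against 0.40 for COX4. ND-20L (0.12 ± 0.04, adjusted p = 0.0135) and ND-24L (0.07 ± 0.02, adjusted p = 0.0127) were called higher, with smaller changes than ND-20 (0.25) and ND-24 (0.29). ATPsynCF6L was called lower (-0.10 ± 0.04, adjusted p = 0.0354), with a larger change than ATPsynCF6 (0.03, adjusted p = 0.712). COX5BL had 0.09 (COX5B 0.24), COX7AL -0.03 (COX7A -0.28), ND-49L -0.03 (ND-49 0.02), ND-51L1 0.05 and ND-51L2 0.04 (ND-51 -0.03), ATPsynGL -0.02 (ATPsynG 0.05) and ATPsynbetaL 0.08 (ATPsynbeta 0.08). UQCR-14L, the one duplicate above background on every array, had 0.18 ± 0.07 (adjusted p = 0.061), against 0.25 for UQCR-14 (adjusted p = 0.0147). The remaining duplicates, ATPsynepsilonL (-0.06) and COX6AL2 (0.02), have no ancestral gene among the 70. Differences between a duplicate and its partner were not tested, and 10 to 26 arrays had the other 14 duplicates above background. Of 9 testis markers 2 were called higher in the mean (15.9% of all probes were), 0 in any single condition, and 3 of the 9 were above background on under 14 arrays.

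Probes for the mitochondrial genome entered the same fit. The genes differed among themselves, and ATP6 is given first. ATP6 encodes the membrane subunit of the ATP synthase that carries the proton channel. The probe named ATP6 had -1.36, 0.18, -1.61 and -1.26 in posterior fragments and -0.99, 0.50 and -2.24 in ato1 discs, so that 1 array of each condition stood above 0. In hh1 discs it had -0.11, 1.00, 0.91 and 0.30, in E(roDom)2033 homozygotes 1.17, -0.45 and 0.38 and in the heterozygotes 0.83 and -0.74. It had -0.52, -0.38 and -0.07 in roX63 discs, 0.62, -0.42 and -0.35 in Su(roDom)519 discs, -0.34, 0.15 and 0.14 in roDom homozygotes and -0.02 and -0.74 in the heterozygotes. The other probe, ATP6bb, followed it closely, with -1.51, 0.26, -1.77 and -1.15 in posterior fragments and -1.09, 0.63 and -1.97 in ato1 discs.

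**Figure D4:**
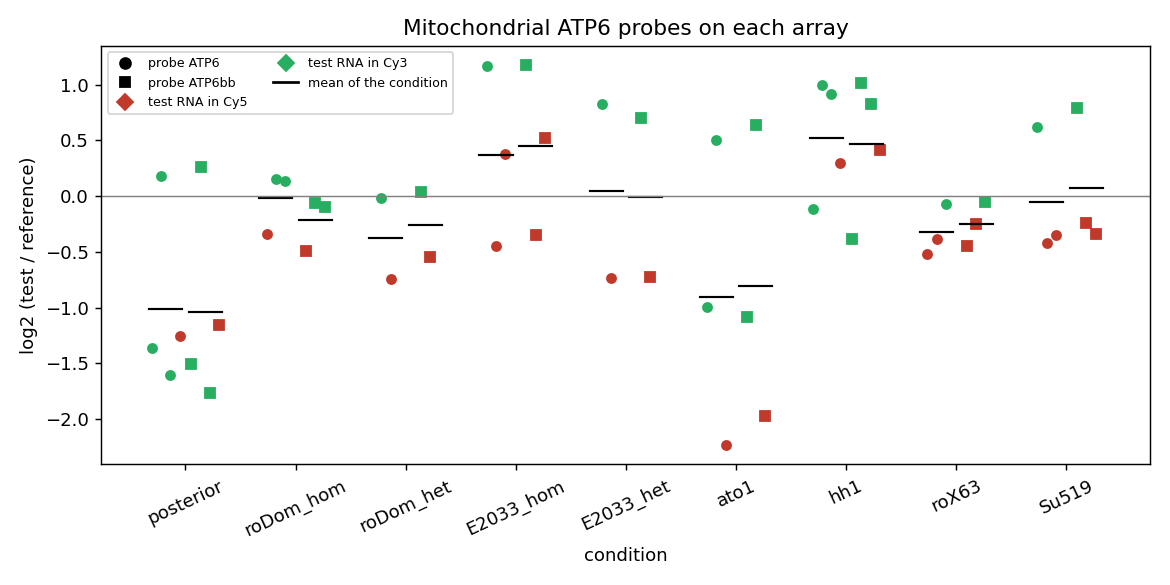
Normalised log2 ratio of test over reference RNA (vertical axis) of the 2 ATP6 probes on each array by condition (horizontal axis), circles for the probe named ATP6 and squares for ATP6bb, with the dye of the test RNA as colour and the condition mean as a bar. Both probes lie below -1 on 3 of 4 arrays of posterior fragments, and within a condition the arrays with test RNA in Cy3 mostly lie above those in Cy5.

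In the fit ATP6 was lower in posterior fragments by both probes (-1.23 ± 0.28, adjusted p = 0.0125, and -1.22 ± 0.31, adjusted p = 0.0249). In ato1 discs the probe ATP6 passed (-1.05 ± 0.32, adjusted p = 0.0396) and ATP6bb did not (-0.93 ± 0.35, adjusted p = 0.108), and in the other 7 conditions neither probe passed (from -0.38 to 0.57). Minus the other conditions, posterior fragments had -1.13 ± 0.30 (adjusted p = 0.0233) and -1.15 ± 0.34 (adjusted p = 0.0372). Minus stop-furrow discs the values were -1.13 ± 0.32 (adjusted p = 0.0296) and -1.12 ± 0.35 (adjusted p = 0.054), with a range of -1.61 to 0.18 in the fragments, against -2.24 to 1.17 in stop-furrow discs. Under a fixed block for the scan day these were -0.31 (adjusted p = 0.854) and -0.087 (adjusted p = 0.968). On scan day 5 the 3 fragment arrays and the ato1 array differed by 0.10 and 0.20 in the 2 probes. Without posterior replicate 1 or 3 neither probe was called against the reference (ATP6 -1.05 and -0.96), without posterior replicate 4 ATP6bb lost its call (-1.41), and in ato1 the call was lost without replicate 1 (-0.87) or 3 (-0.60) and without Su(roDom)519 replicate 1 (-1.05). In posterior fragments neither probe was called against the reference without the dye term (-1.01 and -1.04), with a fixed block for the scan day (-0.98 and -0.81) or on the 7th array series alone (-1.06 and -1.03). The spot of ATP6bb held up to 31% saturated pixels, on hh1 replicate 3.

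Other mitochondrial genes shared part of this pattern. CYTB, the catalytic core of complex III, was lower by both of its probes in posterior fragments (-1.15 and -1.12) and ato1 discs (-1.12 and -1.26). So was ND2, a membrane subunit of complex I, in posterior fragments (-0.77 and -0.79) and ato1 discs (-1.17 and -1.18). The ato1 arrays did not share a sign, with -0.80, 0.43 and -2.43 in probe CYTB and -1.29, 0.11 and -1.91 in probe ND2. Posterior replicate 2 stood above 0 in these probes (0.20 and 0.08). The plain array mean of probe CYTB, without the dye term, was also -0.83 in roX63 and -0.75 in Su(roDom)519 discs. In ato1 discs 1 probe for COX2, the copper-binding subunit of complex IV, was lower as well (-0.85). Discs of roX63 were higher in ND1 (0.85 and 0.99) and ND6 (1.56 and 1.42) by both probes and in ND3 by 1 (0.87), all membrane subunits of complex I. In roDom heterozygotes 1 probe each of ND1 (1.23) and ND6 (1.52) and in hh1 discs 1 probe of ND3 (0.81) were higher. In the mean of the 9 conditions ND6 (0.95 and 0.87), ND1 (0.45 and 0.35) and ND3 (0.46 and 0.47) were higher by both probes and ND4L by 1 (0.30), whereas COX1 (-0.48 and -0.44), CYTB (-0.50 and -0.51) and ND5 (-0.57 and -0.69) were lower by both. Minus the other conditions, ND1, ND2 and ND3 were lower by both probes in ato1 discs, from -1.51 to -0.99, and ND2 and ND3 in posterior fragments, from -1.06 to -0.75. Blocked on scan day, ND3 changed sign in posterior fragments by both probes (1.17 and 1.13). A probe for ND5 was higher in E(roDom)2033 homozygotes than in the others (1.97 ± 0.55, adjusted p = 0.0402) and lower in extra-R8 than in stop-furrow discs (-1.52 ± 0.45, adjusted p = 0.0409), and its other probe passed in neither (2.16 and -1.20). The dye moved these probes more than the nuclear genes: the fitted dye term, Cy5 minus Cy3 orientation, was below 0 for 24 of 24 probes with a median of -0.87 and 20 called, against a median of 0.16 with 59 of 70 above 0 and 17 called for the nuclear genes.

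Across the 27 arrays ATPsynbeta had the pattern most like that of ATP6. ATPsynbeta encodes the catalytic subunit of the ATP synthase, the complex to which ATP6 also belongs. Its log2 ratio and the mean of the 2 ATP6 probes had Pearson's r = 0.80 and Spearman's rho = 0.827 over 27 arrays, and r = 0.862 without the 2 arrays farthest from the median of ATP6. With test RNA in Cy3 r was 0.789 (15 arrays), in Cy5 0.763 (12 arrays) and on scan day 7 it was 0.955 (7 arrays). Its duplicate ATPsynbetaL came next with r = 0.579. Among other ATP synthase genes ATPsynC (0.337), ATPsynG (0.20), ATPsynCF6L (0.154) and ATPsyngamma (0.041) had r above 0. ATPsynCF6 (-0.618), ATPsynE (-0.469), ATPsynO (-0.449), ATPsynB (-0.363) and ATPsynD (-0.318) had r below 0. So did ATPsyndelta, ATPsynF, ATPsynGL and ATPsynepsilonL. Of the 70 nuclear genes 20 had r above 0 and 50 below, with UQCR-C2 lowest at -0.628. On the arrays ATPsynbeta had -0.10, 0.88, 0.79 and 0.21 in hh1 discs, 0.87, -0.27 and 0.21 in E(roDom)2033 homozygotes and -0.27, 0.52 and -0.39 in ato1 discs. Its values spanned less than those of ATP6, from -0.42 to 0.88, and in posterior fragments, where ATP6 was lowest, it had -0.01, 0.07, 0.05 and -0.39. This gene was singled out after its values had been seen, the arrays share conditions, dyes and normalisation, and the correlation is a description.

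**Figure D5:**
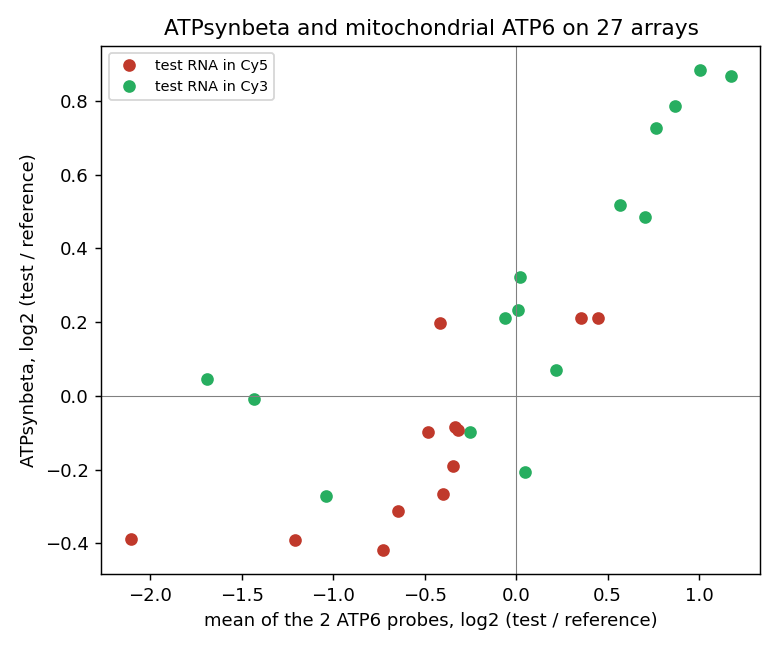
Log2 ratio of test over reference RNA of ATPsynbeta (vertical axis) against the mean of the 2 ATP6 probes (horizontal axis), 1 point for each of the 27 arrays, coloured by the dye of the test RNA. The points rise together (r = 0.80), and the 4 arrays above 0.7 on the vertical axis, 2 of hh1 and 1 each of E(roDom)2033 homozygotes and heterozygotes, have test RNA in Cy3.

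Genes that work beside these members are read against all probes, of which 12.8% were called in roX63 discs (5.71% higher), 4.4% in Su(roDom)519 discs, 4.6% in posterior fragments and 31.9% in the mean of the 9 conditions (15.9% higher). Of 13 further subunits and electron carriers whose symbols lie outside the naming rule 7 were higher and 0 lower in roX63 discs, with a median of 0.51, and 4 were higher and 0 lower in Su(roDom)519 discs. In roX63 discs these were SdhB, SdhC and SdhD of complex II (0.51, 0.80 and 0.47), Cyt-c1 and the Rieske protein gene RFeSP of complex III (0.72 and 0.54), levy, a complex IV subunit (0.61), and sun, the epsilon subunit of the ATP synthase (0.61). In Su(roDom)519 discs they were SdhB (0.44), SdhC (0.56), RFeSP (0.55) and levy (1.02 ± 0.17, adjusted p = 0.00195). In posterior fragments 0 of the 13 passed and their median was -0.05. Calls elsewhere went both ways. In the mean of the 9 conditions SdhB, SdhC, SdhD, Cyt-c1, RFeSP, levy and sun were higher. SdhA (-0.29), blw (-0.21) and Cyt-c-p (-0.42) were lower in it. Cyt-c-p was lower in ato1 discs (-0.82), and ox in ato1 discs (-1.26) and E(roDom)2033 homozygotes (-1.14). SdhB was higher in these homozygotes (0.38), and levy (0.86) and RFeSP (0.59) in the heterozygotes. Genes of mitochondrial ribosomal proteins, which translate the mitochondrial messages, had 28 higher and 1 lower of 62 in roX63 discs (median 0.39), 12 higher in Su(roDom)519 discs and 39 higher and 2 lower in the mean of the 9 conditions. Of 6 genes for the upkeep of the mitochondrial genome, the packaging factor TFAM (0.52 in roX63, 0.89 in Su(roDom)519) and the single-strand binding protein gene mtSSB (1.17 and 0.89) were higher in both, and bsf was lower in both (-0.47 and -0.46). These calls were not limited to extra-R8 discs. TFAM was also higher in E(roDom)2033 heterozygotes (0.92), and bsf lower in the homozygotes (-0.44). In the mean of the 9 conditions TFAM (0.43) and mtSSB (0.37) were higher and bsf (-0.23) lower. Genes of cytoplasmic ribosomal proteins had 51 higher and 1 lower of 90 in the mean of the 9 conditions (median 0.20) and 22 higher and 1 lower in roX63 discs (median 0.30).

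Pathways that feed the chain are read against the same shares of all probes, in roX63 discs 12.8% called and 5.71% called higher. Of 13 genes of the tricarboxylic acid cycle 0 were higher and 4 lower in roX63 discs: ScsbetaA (-1.07 ± 0.19), Scsalpha1 (-0.82), Ogdh (-0.69) and Idh3b (-0.59). In Su(roDom)519 discs 3 were lower, Idh3b (-0.77), ScsbetaA (-0.69) and Mdh2 (-0.43). Calls of other conditions went both ways. Fum1 was higher in E(roDom)2033 homozygotes (0.54), ato1 (0.50) and hh1 (0.73). Idh3a was higher in posterior fragments (0.58) and ato1 (0.98), and Idh3b in hh1 (0.84). ScsbetaA was lower in roDom homozygotes (-0.67), roDom heterozygotes (-0.92) and ato1 (-0.65). In the mean of the 9 conditions Idh3a, Fum1 and ScsbetaG were higher and ScsbetaA, Ogdh, Pdhb, Idh3b and Idh3g lower. Among 5 carriers of the inner and outer membrane the ADP/ATP exchangers sesB (-0.58) and Ant2 (-0.56) and the phosphate carrier gene Mpcp2 (-0.55) were lower in roX63 discs, while Mpcp1 (0.67 ± 0.12) was higher. Ant2 was also lower in posterior fragments (-0.32), E(roDom)2033 homozygotes (-0.37), ato1 discs (-0.36) and the mean of the 9 conditions (-0.33). In that mean sesB (-0.17) and porin (-0.16) were lower too, and Mpcp1 (0.12) was higher. Of 10 glycolysis genes 1 was higher (Pglym78, 0.47) and 2 lower (Ald1, -0.65, and Ldh, -0.29) in roX63 discs, and 2 were higher and 4 lower in the mean of the 9 conditions, Pgk being highest (0.65 ± 0.08). Ldh was also lower in roDom homozygotes (-0.33), roDom heterozygotes (-0.36) and E(roDom)2033 homozygotes (-0.28), and Ald1 in roDom heterozygotes (-0.99). Pgk was higher in E(roDom)2033 homozygotes (1.36), and Pgi lower in posterior fragments (-0.65) and hh1 discs (-0.64). Of 3 regulators (ewg, srl and Ets97D) limma called 0 in every comparison, and 1 had an unadjusted p under 0.05 in E(roDom)2033 heterozygotes.

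RNA of some neighbouring tissues differed between test and reference discs. The lists are read against all probes, of which 31.9% were called in the mean of the 9 conditions (15.9% higher). In roX63 discs 12.8% of all probes were called, in Su(roDom)519 discs 4.4% and in posterior fragments minus stop-furrow discs 8.16%. Salivary gland genes were lower, with 4 of 4 called lower in the mean of the 9 conditions (median -2.32) and 3 of 4 in roX63 and in Su(roDom)519 discs, and their array medians ran from -4.60 to 2.43. Fat body markers were higher, with 5 of 6 in the mean (median 0.64) and array medians from -0.46 in a roDom homozygote array to 2.83 in an ato1 array. Of 14 muscle markers 8 were higher and 1 lower in the mean (median 0.22). The array medians of the muscle list ran from -0.11 in hh1 discs to 1.31 in roX63 discs and reached 1.00 in ato1 and 1.11 in roDom homozygote arrays. Of 7 hemocyte markers 0 were called in the mean by limma and 1 was higher in roX63 discs. Of 6 glia markers 2 were lower in the mean, a share close to that of all probes called, and 3 were higher in posterior fragments than in stop-furrow discs. The salivary and fat body lists had 0 genes above background on every array. The part of these tissues in the mean change of the chain was not tested.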

How the data were processed

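RNA of 27 eye disc samples was measured on 2-colour arrays of PCR products against 1 common reference. The deposited scanner files hold spot intensity, background and flag scores (27 files with 17664 spots each) from GenePix, per the file headers, and the percent of saturated pixels, as deposited. The authors' deposited value table holds log2 ratios, with a constant per array, and served as an alternative. Annotation, scale and centring beyond the labels are not given in the sources used here.

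Groups came from sample titles and dyes from the labels. Spots with a flag score of -75 or below were left out. Intensities were background-corrected (normexp, offset 50) and normalised within arrays by loess (span 0.3, control spots at weight 0). Ratios were turned to test over reference, spots of a probe were averaged, and the brightest probe stood for a gene. A spot counted as above background at 2 SD over it. One limma model (R 4.3.3, limma 3.58.1) had 9 condition means and a dye term. It gave 22 comparisons, with adjusted p-values over 16494 probes, and was tested on simulated data. The labels call the samples separate without naming cultures or animals, so p-values measure the spread between these arrays, which may be technical. CG numbers were matched to RefSeq names: 12714 probes by locus tag, 35 by symbol, 2753 by synonym and 998 not at all.

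Members, gene lists and tests were chosen with earlier results of these data known. Named were COX5A, ND-PDSW, ATPsynbeta, the ATP6 probes, the duplicates with their partners, and in each comparison up to 4 called genes at either end (6 in the mean), or every called gene where 5 or fewer were; values on every array were given for the 6 genes called in the most conditions, ties broken by the largest absolute mean change. Other genes named with values were chosen after these were seen, among them all further calls and mitochondrial probes. Alternatives changed the dye term, background, normalisation, dim-probe filter, probe rule, array series, scan day, grouping and input table, left out each array, and, added later, turned 1 array. Promoter motifs were not analysed here. Per-sample columns not used numbered 0.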

Additional observations from a re-analysis of the deposited data

Results flagged for a closer look

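Of 86 sets of 4 arrays tested 3 held an array far from the other 3, where chance gives about 1 in 20. COX5B had 0.39 in posterior replicate 1, ND-B8 had -0.48 in the same array, and ND-39 had 0.90 in hh1 replicate 4. Posterior replicate 1 also gave the highest value of its 4 arrays for 43 of the 70 nuclear genes.

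A further 13 values differed between groups of conditions by the fitted contrast itself. Posterior fragments minus stop-furrow discs gave -0.42 in ND-39, -0.43 in UQCR-C1 and -1.13 in the probe ATP6. Extra-R8 minus stop-furrow discs gave 0.39 in ATPsynCF6L, 0.71 in COX6B, 0.74 in COX8 and 0.73 in ND-B22. Posterior fragments minus extra-R8 discs gave -1.13 in ATPsynG, -0.69 in ND-19, -0.45 in ND-30, -0.71 in ND-B15, -0.57 in ND-B17 and -0.83 in ND-B22.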

How the results depend on the processing

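Of 141 calls of named genes and probes 141 kept their direction and stayed called with the filter on dim probes, 134 without background subtraction, 131 with the mean of all probes, 129 with scale normalization and 114 on the 7th series alone. With print-tip loess 112 did so, with the regrouping 103, without the dye term 84, with the array series as a block 82, with the scan day as a random block 64 (estimated correlation 0.262) and as a fixed block 29, while 37 were lost with 1 array turned. Of 125 calls 109 held in the authors' deposited table, which was used without the column of hh1 replicate 2, since that correlated at 0.137 with its own array and at -0.965 with another. The cause of the changes below was not tested. Counts are nuclear genes called, medians those of the 70 nuclear genes, and a condition named alone is set against the reference. No paired analysis was possible because the labels give no replicate numbers. Signal over background limits the duplicates most.

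Without the dye term, the count was 1 in each of posterior fragments, roDom homozygotes and ato1, 0 in each of roDom heterozygotes and E(roDom)2033 homozygotes minus the others, 3 in hh1 and 10 in posterior minus extra-R8. ATP6 had -1.01 in posterior fragments, -0.91 in ato1, -0.92 in posterior minus the others and -1.003 in posterior minus stop-furrow. ATP6bb had -1.04 in posterior fragments and -0.97 in posterior minus the others. Without background subtraction, the count was 1 in roDom heterozygotes. With print-tip loess, the count was 1 in posterior fragments and 2 in E(roDom)2033 homozygotes minus the others. With scale normalization between arrays, the count was 4 in each of posterior fragments and roDom heterozygotes, 1 in each of roDom homozygotes and ato1, 5 in posterior minus stop-furrow, 8 in extra-R8 minus stop-furrow and 16 in posterior minus extra-R8. ATP6 had -0.93 in ato1 and -1.35 in posterior minus extra-R8. ATP6bb had -1.30 in posterior minus stop-furrow and -1.43 in posterior minus extra-R8. With the filter on dim probes, ATP6bb had -1.12 in posterior minus stop-furrow. With the array series as a fixed block, the count was 1 in posterior fragments, 4 in roDom heterozygotes, 5 in each of E(roDom)2033 heterozygotes and ato1, 19 in the mean of the 9 conditions, 13 in posterior minus the others, 6 in posterior minus stop-furrow and 12 in posterior minus extra-R8. The median was 0.52 in roX63. ATP6 had -0.9999 in posterior minus the others and -1.06 in posterior minus stop-furrow. ATP6bb had -1.01 in posterior minus the others. These values changed sign: COX7A 0.021 in the mean of the 9 conditions. On the 7th array series alone, the count was 0 in each of posterior fragments and roDom homozygotes, 4 in roDom heterozygotes, 5 in ato1, 13 in posterior minus the others, 3 in each of E(roDom)2033 homozygotes minus the others and hh1 minus the others, 1 in ato1 minus the others, 8 in posterior minus stop-furrow, 2 in extra-R8 minus stop-furrow and 12 in posterior minus extra-R8. ATP6 had -1.06 in posterior fragments, -0.97 in posterior minus the others and -0.98 in posterior minus stop-furrow. ATP6bb had -1.03 in posterior fragments and -0.98 in posterior minus the others. With the scan day as a random block, the count was 1 in posterior fragments, 0 in each of roDom heterozygotes, posterior minus the others, E(roDom)2033 homozygotes minus the others, hh1 minus the others, posterior minus stop-furrow, extra-R8 minus stop-furrow and posterior minus extra-R8, 4 in each of ato1 and roX63, 2 in Su(roDom)519 and 16 in the mean of the 9 conditions. ATP6bb had -1.21 in posterior fragments, -1.09 in ato1 and -1.10 in posterior minus the others. ATP6 had -1.11 in posterior minus the others and -0.98 in posterior minus stop-furrow. With the scan day as a fixed block, the median was 0.16 in posterior fragments, 0.022 in roDom homozygotes, -0.11 in roDom heterozygotes, 0.29 in E(roDom)2033 homozygotes, -0.051 in E(roDom)2033 heterozygotes, 0.052 in roX63, -0.028 in Su(roDom)519, 0.095 in posterior minus the others, -0.19 in roDom heterozygotes minus the others, 0.20 in E(roDom)2033 homozygotes minus the others, 0.091 in ato1 minus the others, 0.14 in hh1 minus the others, -0.13 in Su(roDom)519 minus the others, -0.14 in extra-R8 minus stop-furrow and 0.10 in posterior minus extra-R8. ATP6 had -0.98 in posterior fragments, -0.91 in posterior minus the others, -1.34 in ato1 minus the others and -0.31 in posterior minus stop-furrow. ATP6bb had -0.81 in posterior fragments, -1.27 in ato1, -0.69 in posterior minus the others and -1.20 in ato1 minus the others. The count was 1 in each of roDom homozygotes, hh1 and Su(roDom)519 minus the others, 0 in each of roDom heterozygotes, E(roDom)2033 heterozygotes, roX63, Su(roDom)519, posterior minus the others, E(roDom)2033 homozygotes minus the others, hh1 minus the others, posterior minus stop-furrow, extra-R8 minus stop-furrow and posterior minus extra-R8, 2 in E(roDom)2033 homozygotes, 13 in ato1, 16 in the mean of the 9 conditions and 8 in ato1 minus the others. These values changed sign: COX4 -0.014 in roX63, ND-B22 -0.073 in roX63, ND-B22 -0.069 in the mean of the 9 conditions, ND-B22 -0.28 in extra-R8 minus stop-furrow, ND-B22 0.50 in posterior minus extra-R8, ND-B14.5A -0.13 in Su(roDom)519, ND-20L -0.026 in the mean of the 9 conditions, ND-42 0.024 in the mean of the 9 conditions, ND4L_b -0.021 in the mean of the 9 conditions, ND-23 0.14 in posterior minus the others, ND-B15 0.097 in posterior minus the others, ND-B15 0.092 in posterior minus extra-R8, ND3 1.17 in posterior minus the others, ND3 1.34 in posterior minus extra-R8, ND3_b 1.13 in posterior minus the others, ND3_b 1.14 in posterior minus extra-R8, ND2 0.12 in posterior minus stop-furrow, COX8 -0.23 in extra-R8 minus stop-furrow and ATPsynG 0.36 in posterior minus extra-R8. In the authors' deposited table, the count was 0 in each of posterior fragments, hh1 minus the others and posterior minus stop-furrow, 1 in each of roDom homozygotes and roX63 minus the others, 2 in E(roDom)2033 homozygotes, 3 in hh1, 8 in extra-R8 minus stop-furrow and 12 in posterior minus extra-R8. ATP6bb had -0.95 in ato1, -1.20 in posterior minus stop-furrow and -1.51 in posterior minus extra-R8. The median was 0.26 in hh1. ATP6 had -0.24 in the mean of the 9 conditions, -0.95 in ato1 minus the others and -1.42 in posterior minus extra-R8. With the mean of all probes of a gene, the count was 4 in ato1 and 1 in ato1 minus the others. ATP6 had -0.99 in ato1. ATP6bb had -1.12 in posterior minus stop-furrow. With 2 E(roDom)2033 arrays regrouped by the other label, the count was 1 in each of roDom heterozygotes and E(roDom)2033 homozygotes, 5 in E(roDom)2033 heterozygotes, 18 in the mean of the 9 conditions, 0 in E(roDom)2033 homozygotes minus the others and 2 in extra-R8 minus stop-furrow. With roDom homozygote replicate 2 turned by its header, the count was 1 in each of posterior fragments and posterior minus the others, 0 in each of roDom homozygotes, roDom heterozygotes and posterior minus stop-furrow and 3 in Su(roDom)519.

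With each array left out in turn, the count ran from 0 to 4 in ato1 minus the others, 1 to 4 in ato1, 0 to 4 in E(roDom)2033 heterozygotes, 0 to 2 in E(roDom)2033 homozygotes minus the others, 0 to 8 in E(roDom)2033 homozygotes, 1 to 21 in extra-R8 minus stop-furrow, 0 to 1 in hh1 minus the others, 1 to 6 in hh1, 0 to 18 in posterior minus extra-R8, 0 to 7 in posterior minus stop-furrow, 0 to 11 in posterior minus the others, 0 to 3 in posterior fragments, 0 to 3 in roDom heterozygotes, 0 to 3 in roDom homozygotes minus the others, 0 to 4 in roDom homozygotes, 0 to 7 in roX63 minus the others, 1 to 19 in roX63 and 0 to 8 in Su(roDom)519. ATP6 ran from -1.49 to -0.48 in ato1 minus the others, -1.61 to -0.60 in ato1, -0.29 to -0.17 in the mean of the 9 conditions, -1.49 to -0.93 in posterior minus extra-R8, -1.45 to -0.86 in posterior minus stop-furrow, -1.44 to -0.86 in posterior minus the others and -1.54 to -0.96 in posterior fragments. ATP6bb ran from -1.53 to -0.53 in ato1, -1.61 to -0.97 in posterior minus extra-R8, -1.49 to -0.82 in posterior minus stop-furrow, -1.51 to -0.85 in posterior minus the others and -1.59 to -0.93 in posterior fragments.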
